A study of Mus musculus with 30 samples.

Results

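The milk protein genes are the genes whose products make up most of the protein of milk, and 8 of them were followed here in mouse mammary tumors. They were taken by symbol from the 21841 genes of the deposited table, namely the caseins Csn1s1, Csn1s2a, Csn1s2b, Csn2 and Csn3, the whey proteins Wap and Lalba, and the mucin-like milk protein Glycam1. All 8 were in the table, and all 8 passed the filter on low counts that left 13663 genes for testing. RNA sequencing was done on 30 breast tumors of FVB/N-Tg(MMTV-PyVT)634Mul/J animals (genotype given as WT), in which the mouse mammary tumor virus promoter drives the polyoma middle T oncogene in mammary epithelium, so that every group, vehicle included, carried the transgene. There were 6 groups of 5 tumors, which received vehicle, 5-fluorouracil (5-FU, 40 mg/kg every 4 days), gemcitabine (64 mg/kg every 7 days), the heme oxygenase-1 inhibitor KCL-HO-1i (25 µmol/kg daily), or this inhibitor with either drug (KCL-HO-1i/5-FU and the combination KCL-HO-1i/gemcitabine). Drugs were given by intraperitoneal injection over 72 hours before collection according to the labels, whereas the study's methods state less time and less gemcitabine. The labels give no age, and the whole tumor was sequenced, so that fewer cells of a type and less RNA per cell cannot be told apart.

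In the mammary gland, milk protein genes are switched on in luminal alveolar cells during pregnancy and lactation. Prolactin acts through its receptor and the kinase JAK2 on the transcription factor STAT5, which binds casein promoters, and glucocorticoids and factors such as ELF5 act alongside it. Caseins assemble into micelles that carry calcium and phosphate, kappa-casein (Csn3) coats and stabilises these micelles, and alpha-lactalbumin (Lalba) joins the galactosyltransferase B4galt1 to make lactose.

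The caseins lay together on chromosome 5 of GRCm38 (mm10), the build of the deposited table. Csn1s1 spanned chr5:87666208-87682578 on the plus strand, Csn2 chr5:87692624-87699630 on the minus strand, Csn1s2a chr5:87774567-87788797, Csn1s2b chr5:87808082-87824426 and Csn3 chr5:87925579-87932665, the last 3 on the plus strand. The other members lay elsewhere, with Wap at chr11:6635482-6638637, Lalba at chr15:98480400-98482721 and Glycam1 at chr15:103562759-103565081, all on the minus strand. RefSeq promoter windows (GRCm38.p6, 250 bases before to 50 after the annotated start) were at hand for 6 of the 8 members, Csn1s2b and Csn3 not being among them. The palindrome TTCNNNGAA, the core of the element that STAT5 binds, was searched in these windows and was found in 4 of the 6, against 8.30% of 32851 windows of the same length. The sequences below, the 250 bases before the start of 3 members with that match and of Lalba, which has none, are shown to compare windows with and without the match. Capitals mark the match, and sequences read 5′ to 3′ on the strand of the gene.
Csn2, chr5:87699426-87699675, minus strand: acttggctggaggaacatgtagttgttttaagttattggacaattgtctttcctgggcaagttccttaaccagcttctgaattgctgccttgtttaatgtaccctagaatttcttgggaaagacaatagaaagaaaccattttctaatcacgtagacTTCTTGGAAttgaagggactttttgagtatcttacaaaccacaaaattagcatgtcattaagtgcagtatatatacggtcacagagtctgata
Csn1s1, chr5:87665958-87666207, plus strand: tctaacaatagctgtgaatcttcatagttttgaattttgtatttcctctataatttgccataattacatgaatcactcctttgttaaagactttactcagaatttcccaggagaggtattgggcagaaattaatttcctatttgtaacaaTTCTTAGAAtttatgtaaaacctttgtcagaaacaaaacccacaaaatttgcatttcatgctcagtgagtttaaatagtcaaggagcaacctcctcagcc
Glycam1, chr15:103565082-103565331, minus strand: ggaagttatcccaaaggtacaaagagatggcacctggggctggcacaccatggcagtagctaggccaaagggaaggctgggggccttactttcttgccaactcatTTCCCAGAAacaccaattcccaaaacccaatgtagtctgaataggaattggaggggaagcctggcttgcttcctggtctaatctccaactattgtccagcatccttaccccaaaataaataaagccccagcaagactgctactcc
Lalba, chr15:98482684-98482933, minus strand: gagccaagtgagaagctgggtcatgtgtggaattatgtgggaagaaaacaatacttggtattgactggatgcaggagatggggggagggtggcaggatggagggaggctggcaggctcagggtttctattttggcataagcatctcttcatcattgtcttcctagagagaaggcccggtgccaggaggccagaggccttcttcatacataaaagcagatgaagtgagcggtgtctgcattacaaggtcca
The first base of the match stood at -93 in Csn2 (TTCTTGGAA), at -100 in Csn1s1 (TTCTTAGAA) and at -145 in Glycam1 (TTCCCAGAA), counted back from the start. In Csn1s2a it stood 21 bases into the transcript (TTCTTAGAA), and in Wap and Lalba these letters did not occur in the window. The glucocorticoid receptor motif AGAACA, searched on both strands, was found in 1 of the 6 windows, that of Csn1s2a at -59, against 19.0% of all windows. Gene spans above are from GENCODE M21 and windows from RefSeq, whose starts differ, so that most of the Csn2 window, the match included, lies within the GENCODE span of Csn2. A match is a description of the letters only, and Wap, which has none, varied with Csn2 across tumors as the members with a match did (values below).

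All 11 luminal epithelial markers had reads in every tumor, with a lowest level of 590.0 CPM for Epcam and 567 CPM for Krt8. Others fell further, with a lowest level of 9.37 CPM for Krt19 and 9.70 CPM for Elf3. Libraries held 10067698 to 13622395 counts (median 12096816), and the 8 genes took 0.0540% to 3.41% of them (median 1.46%). In the median tumor most of this came from Csn3, which alone took a median of 1.22% and was the most abundant gene of the whole table in 6 libraries. Without Csn3 the share of the other 7 members ran from 0.0207% to 1.84% (median 0.184%). By group, the share of all 8 was 1.60% ± 0.373 (SD, n = 5) with vehicle, 1.36% ± 0.743 with 5-FU and 1.27% ± 0.600 with gemcitabine. It was 1.62% ± 0.563 with the inhibitor alone, 1.26% ± 0.471 with KCL-HO-1i/5-FU and 1.81% ± 1.08 with KCL-HO-1i/gemcitabine. All of these groups overlapped in their shares. Levels are given below as CPM (counts scaled to the sequencing depth) on library sizes adjusted by TMM normalization, in the order of replicates 1 to 5. Set against exon length, the median level was 4634 CPM per kb for Csn3, 1113 for Lalba, 183 for Csn1s1, 132 for Csn2, 111 for Wap, 26.2 for Csn1s2a, 2.48 for Glycam1 and 0.336 for Csn1s2b. Csn3 and Lalba thus led this order, while Csn1s1, Csn2 and Wap, neighbors in it, had ranges across tumors far wider than the steps between their medians.

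Csn3, the micelle-coating kappa-casein, was at 16939, 17403, 9538, 10527 and 15374 CPM in vehicle tumors, and at 14516, 14059.7, 15192, 318 and 13379.9 CPM after 5-FU. It was at 9292, 12237, 6199, 9497 and 12189 CPM after gemcitabine and at 11549, 14644, 10378, 5678 and 18319 CPM after KCL-HO-1i. Under the combinations Csn3 was at 10523, 16213, 5605, 10259 and 16346 CPM with KCL-HO-1i/5-FU and at 10766, 6739, 4439.9, 15707 and 16569.8 CPM with KCL-HO-1i/gemcitabine. All 6 groups overlapped, and 29 of the 30 tumors lay within a 4.13-fold range. The exception was 5-FU replicate 4, which lay far below every other tumor and widened the range to 57.6-fold. Only 8.58% of the spread of Csn3 on the log2 scale lay between groups, against a median of 20.5% over all tested genes. That low tumor weighs on this share, since the SD of log2 CPM was 2.46 in the 5-FU group and 0.401 to 0.814 in the others. For the other members the share ran from 13.9% (Lalba) to 30.1% (Csn2).

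Lalba, the lactose synthase cofactor, was at 1009.7, 1868, 507, 411 and 759 CPM in vehicle tumors, and at 1599, 1302, 752, 15.2 and 479.5 CPM after 5-FU. Gemcitabine tumors held 254, 587, 270.4, 1295 and 1923 CPM of Lalba, and KCL-HO-1i tumors held 1276, 2188, 1255, 538 and 2609 CPM. With KCL-HO-1i/5-FU its level was 851, 1007, 295, 406 and 681 CPM, and with KCL-HO-1i/gemcitabine 1386, 865, 139.7, 1567 and 2695 CPM. Groups again overlapped throughout, and the lowest tumor was again 5-FU replicate 4. The highest tumor held 177-fold more Lalba than the lowest, and 19.3-fold more once that library was set aside.

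Csn2 (beta-casein), a major micelle protein, was at 290.4, 101, 1361, 47.6 and 118 CPM in vehicle tumors, and at 197, 1071, 613, 14.3 and 46.2 CPM after 5-FU. After gemcitabine it was at 5.31, 4.42, 219, 163 and 4504 CPM, and after KCL-HO-1i at 192, 1659.8, 1689.7, 1507 and 115 CPM. KCL-HO-1i/5-FU tumors held 196, 24.1, 19.7, 1.89 and 0.783 CPM of Csn2, and KCL-HO-1i/gemcitabine tumors held 644, 7423, 19.7, 12.4 and 7018 CPM. Tumors of every group differed widely, and the 3 highest tumors came from the gemcitabine and KCL-HO-1i/gemcitabine groups while tumors below 10 CPM came from the gemcitabine and KCL-HO-1i/5-FU groups. The highest tumor held 9481-fold more Csn2 than the lowest. The SD of log2 CPM within groups was 3.17, the 11th largest of the 13663 tested genes, whose median SD was 0.331. Csn2 ranged from 0.0479 to 1101 reads per 1000 Csn3 reads (median 16.9), whereas Lalba ranged from 27.3 to 163 per 1000.

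Csn1s2a, an alpha-S2 casein, was at 27.1, 14.8, 172, 9.07 and 16.8 CPM in vehicle tumors, and at 20.7, 92.3, 43.5, 146 and 9.49 CPM after 5-FU. It was at 0.898, 1.84, 32.3, 91.3 and 1512 CPM after gemcitabine and at 21.2, 729, 151, 489 and 53.0 CPM after KCL-HO-1i. KCL-HO-1i/5-FU tumors held 17.4, 6.08, 3.88, 1.07 and 2.11 CPM, and KCL-HO-1i/gemcitabine tumors held 69.3, 2757, 2.64, 5.58 and 3500.1 CPM. All 5 KCL-HO-1i/5-FU tumors lay below all 5 tumors given the inhibitor alone, the one pair of groups that did not overlap for any member among the 9 pairs compared, in which 2.55% of tested genes were lower without overlap. Gemcitabine replicate 5 and KCL-HO-1i/gemcitabine replicates 2 and 5 held more Csn1s2a than any other tumor.

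Csn1s1, the alpha-S1 casein, ranged from 14.7 to 5372 CPM (median 259). It was at 181, 1553, 1029.7, 813 and 667 CPM after KCL-HO-1i alone, and at 102, 223, 19.5, 14.7 and 38.8 CPM with KCL-HO-1i/5-FU. Only the lowest tumor of the former group and the highest of the latter overlapped. Its 3 highest tumors were KCL-HO-1i/gemcitabine replicates 5 and 2 and gemcitabine replicate 5, at 5372, 3374 and 1973 CPM, the tumors that also led for Csn2 and Csn1s2a. Csn1s2b, the second alpha-S2 casein gene, was near the limit of detection at 0.0836 to 5.83 CPM (1 to 58 reads), and its 3 highest tumors were again those. Since Csn1s2b is a close relative of Csn1s2a, which held far more reads in these libraries, some of its reads may have been assigned between the genes, and its values are uncertain. Among the genes between and beside the caseins on chromosome 5, Odam and Sult1d1 reached no more than 1.95 and 3.42 CPM and Cabs1 held no read in any library, while Smr3a and Smr2 reached 58.4 and 39.2 CPM.

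Wap, the whey acidic protein, ranged from 3.34 to 661 CPM (median 61.0), with vehicle replicate 3 highest at 661 CPM, KCL-HO-1i/gemcitabine replicates 5 and 2 at 649 and 609 CPM, and 5-FU replicate 4 lowest. Glycam1, a mucin-like glycoprotein, was about as uneven as Csn2, with an SD of log2 CPM within groups of 3.16. It was at 0.658, 1.31, 11.4, 0.170 and 3.42 CPM in vehicle tumors, and at 1.00, 3.49, 13.5, 0.489 and 0.371 CPM after 5-FU. After gemcitabine it was at 0.490, 0, 30.3, 2.48 and 129.5 CPM, and after KCL-HO-1i at 5.17, 50.6, 38.7, 42.0 and 1.65 CPM. KCL-HO-1i/5-FU tumors ran at 1.66, 0, 0.440, 0.0823 and 0.0783 CPM, and KCL-HO-1i/gemcitabine tumors at 5.19, 628, 0, 0 and 140.5 CPM. Glycam1 held no read in 4 libraries and at most 3 reads in 7, and a library with no read allows up to 3 counts. Tumors of the same group thus went from undetected to more than any vehicle tumor held. Glycam1 is also made by high endothelial vessels of lymph nodes, and of 12 marker genes for those vessels and for B cells only Ccl21a passed the filter. The summed level of the 12 was 0.248 to 13.8 CPM across KCL-HO-1i/gemcitabine tumors, 0.388 to 38.4 CPM across gemcitabine tumors, 0.149 to 1.44 CPM across vehicle tumors and 1.71 to 11.3 CPM across 5-FU tumors. With the inhibitor alone or in KCL-HO-1i/5-FU tumors it was 0.576 to 5.64 CPM, and the vessel genes Chst4 and Madcam1 were at 0 in 26 and 24 libraries. Ccl21a, a chemokine of these vessels and of lymphatic vessels, held no read in any vehicle tumor, and reads in 4 tumors each after 5-FU, gemcitabine and KCL-HO-1i, in 5 with KCL-HO-1i/5-FU and in 2 with KCL-HO-1i/gemcitabine, where it reached its highest level of 12.8 CPM. It had an unadjusted p under 0.05 against vehicle in all 5 treatments (edgeR adjusted p = 0.0927 with KCL-HO-1i/gemcitabine). Over the 30 tumors, Pearson's r of Ccl21a with Glycam1 was 0.278 (adjusted permutation p = 0.253) and Spearman's rho 0.242 (adjusted permutation p = 0.371). The part of such vessels in the values of Glycam1 was not tested.

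**Figure D1:**
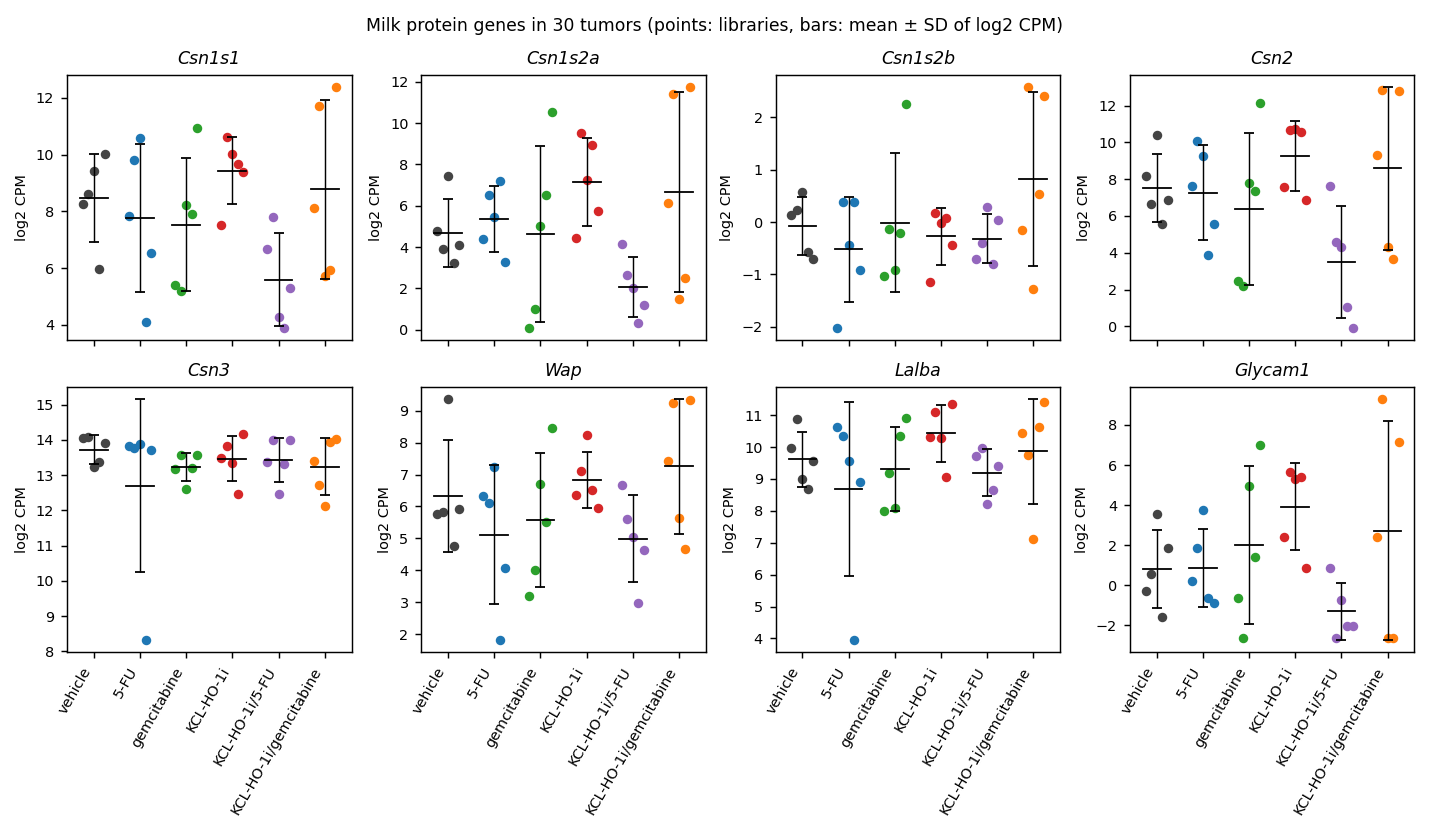
Level of each milk protein gene in log2 CPM (y axis) in the 5 tumors of each group (x axis). Points are libraries in order of replicate, and bars give the mean and SD of log2 CPM. Apart from 5-FU replicate 4, Csn3 stays within a 4.13-fold range, while Csn2, Csn1s2a and Glycam1 spread widely within most groups.

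The members therefore differed in how they varied. Over the 30 tumors, all 28 pairs of members were compared by Pearson's r and Spearman's rho of log2 CPM, with permutation p-values (100000 resamples) adjusted by Benjamini-Hochberg. By Pearson 20 pairs and by Spearman 17 pairs had an adjusted p under the threshold of 0.05. Csn2 rose and fell with Csn1s1 (r = 0.899, rho = 0.894), Csn1s2a (r = 0.898, rho = 0.893), Glycam1 (r = 0.891, rho = 0.916) and Wap (r = 0.871, rho = 0.917), each with a permutation p of 1e-05 for r and rho, the smallest these permutations can give, adjusted to 2.55e-05 and 3.11e-05. With the 2 tumors farthest from the median of 1 gene of the pair left out, these r values were 0.873, 0.872, 0.908 and 0.883. That gene was Csn1s1 and Csn1s2a in their pairs, and Csn2 in the pairs with Glycam1 and Wap. The relation of Csn2 with Csn3 did not pass the threshold (r = 0.140, adjusted permutation p = 0.536; rho = 0.0202, adjusted permutation p = 0.917). Without 5-FU replicate 4 that r was -0.028. With Csn1s1, Csn3 passed the threshold by Pearson only (r = 0.374, adjusted permutation p = 0.0416; rho = 0.303, adjusted permutation p = 0.131). That r was 0.380 without the 2 tumors farthest in Csn1s1 and 0.222 without 5-FU replicate 4. With Wap it did not pass (r = 0.350, adjusted permutation p = 0.0830; rho = 0.0585, adjusted permutation p = 0.814). Csn3 tracked Lalba more closely (r = 0.861, adjusted permutation p = 2.55e-05; rho = 0.680, adjusted permutation p = 0.000127), with r = 0.627 without the 2 farthest tumors and 0.708 without 5-FU replicate 4. Lalba lay between both sets, with r = 0.614 to Csn1s1 (adjusted permutation p = 0.000151; rho = 0.599, adjusted permutation p = 0.00135) and r = 0.461 to Csn2 (adjusted permutation p = 0.0122; rho = 0.494, adjusted permutation p = 0.0124). Without the 2 tumors farthest in Csn1s1, and the 2 farthest in Csn2, these r were 0.586 and 0.494. With Csn1s2a (r = 0.301, adjusted permutation p = 0.129; rho = 0.463, adjusted permutation p = 0.0185) and Glycam1 (r = 0.340, adjusted permutation p = 0.0830; rho = 0.403, adjusted permutation p = 0.0455) Lalba passed the threshold by Spearman only. All genes of a tumor share its library total, and tumors that share a mouse code in the labels may not be independent. Within 8 codes that held 2 or more tumors, over 25 tumors and relative to each code's mean, r was 0.909 for Csn2 with Csn1s1, 0.846 for Csn2 with Glycam1, 0.392 for Csn2 with Csn3 and 0.870 for Csn3 with Lalba.

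**Figure D2:**
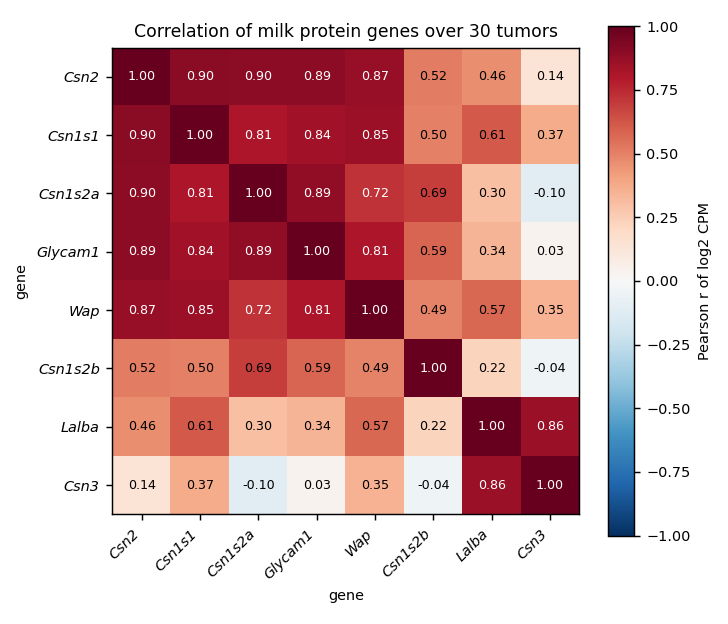
Pearson r of log2 CPM for each pair of milk protein genes (both axes) over 30 tumors, in color and figures. Csn2, Csn1s1, Csn1s2a, Glycam1 and Wap form a block of r from 0.72 to 0.90, and Csn3 stands apart from it with its highest r, 0.86, to Lalba.

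**Figure D3:**
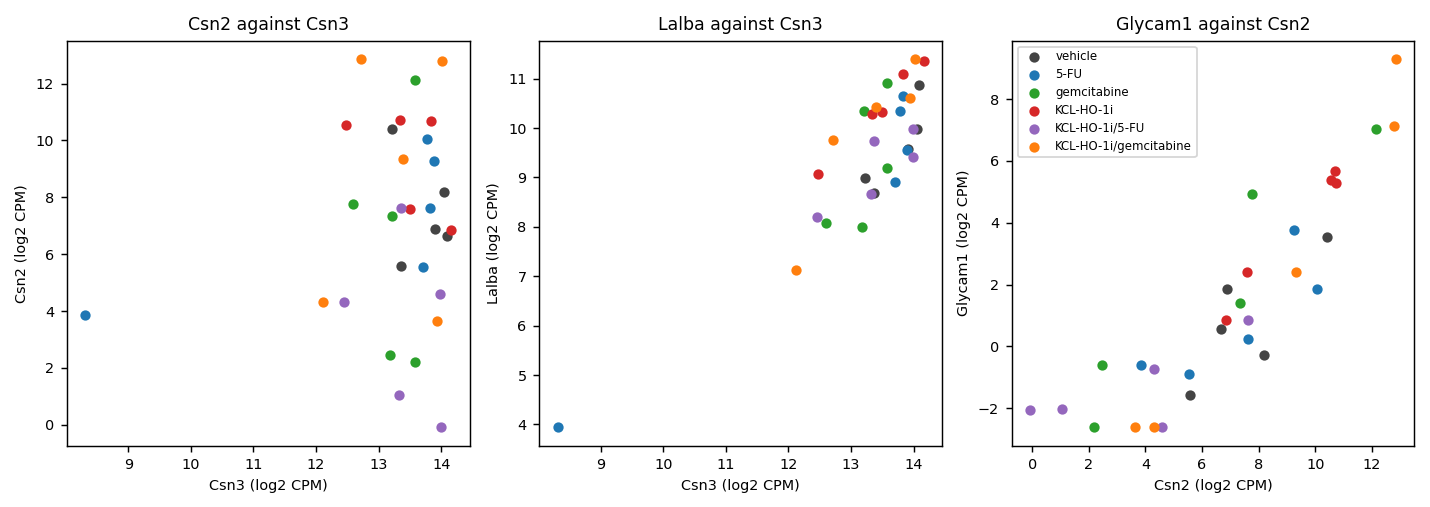
Csn2 against Csn3, Lalba against Csn3 and Glycam1 against Csn2, in log2 CPM on both axes, with 1 point per tumor colored by group. Csn2 spans its whole range among tumors that lie within a 4.13-fold range of Csn3. The single point at far left in the first 2 panels is 5-FU replicate 4.

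The question the design asks is whether KCL-HO-1i, alone or with either drug, changed expression. For the milk protein genes, edgeR's quasi-likelihood test was fitted over all tested genes, with 12 contrasts and 1 test of any difference among the 6 groups. None of the 8 members had an adjusted p under 0.05 in any of the 13 tests. In 11 of these tests no gene of the table was called (percent called 0), and in the average effect of KCL-HO-1i and in the test of any difference 0.0586% and 0.651% of tested genes were called. At an unadjusted p under 0.05 stood 13 of the 96 member values over the 12 contrasts, near the 10.99% of values of all tested genes over those contrasts, and 3 of 8 members in the test of any difference, in which 18.7% of tested genes did. Over the 3 backgrounds together, the effect of KCL-HO-1i on the members lay between a log2 fold change of -0.070 ± 0.68 (SE) for Csn1s1 and 0.75 ± 1.03 for Glycam1, with 0.019 ± 0.92 for Csn2 and -0.011 ± 0.30 for Csn3. No member had an unadjusted p under 0.05 there, where 23.0% of tested genes did, nor in KCL-HO-1i alone against vehicle (9.43% of tested genes), in KCL-HO-1i/gemcitabine against gemcitabine (13.5%) or in the interaction of KCL-HO-1i with gemcitabine (1.34%). The average effect depended on the mouse code of the labels. Tumors with and without the inhibitor shared a code only in PY69, PY74 and PY84. Those of PY69 were 5-FU replicate 4 (Csn3 at 318 CPM) and KCL-HO-1i replicate 4 (Csn3 at 5678 CPM). The part of this low tumor in the adjusted values was not tested. With mouse code as a covariate, 4 of 8 members had an unadjusted p under 0.05, all higher with the inhibitor, against 10.03% of tested genes. These were Csn1s1 at 4.19 ± 1.18, Wap at 3.27 ± 1.16, Lalba at 2.58 ± 0.74 and Csn3 at 1.38 ± 0.47 (log2 fold change ± SE), with a smallest edgeR adjusted p of 0.422, and no gene of the table was called.

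The largest fitted fold changes of the members came in contrasts with a drug combination. Between tumors given KCL-HO-1i/5-FU and those given the inhibitor alone, 4 of 8 members had an unadjusted p under 0.05, all lower in the combination, against 16.9% of tested genes in both directions. These were Csn1s2a, at a log2 fold change of -5.55 ± 1.84 (SE, edgeR adjusted p = 0.135), Glycam1, at -5.88 ± 2.02 (edgeR adjusted p = 0.148), Csn1s1, at -3.41 ± 1.30 (edgeR adjusted p = 0.183) and Csn2, at -4.41 ± 1.83 (edgeR adjusted p = 0.218). Csn3 stood at -0.039 ± 0.52 and Lalba at -1.28 ± 0.75 in the same contrast. With DESeq2, which called 2.85% of tested genes here, Csn1s2a and Glycam1 were called (adjusted p = 0.00991 and 0.0292). The interaction of KCL-HO-1i with 5-FU gave log2 values of -5.94 ± 2.30 for Csn1s2a, -6.04 ± 2.58 for Glycam1 and -3.56 ± 1.72 for Csn1s1, with edgeR adjusted p of 0.486, 0.516 and 0.582. Those 3 of 8 members had an unadjusted p under 0.05 in that interaction, against 8.53% of tested genes. Csn1s1 alone had one against vehicle (-2.65 ± 1.26 (SE), edgeR adjusted p = 0.271; 17.6% of tested genes) and against 5-FU (-2.80 ± 1.26, edgeR adjusted p = 0.402; 11.4% of tested genes), in both cases lower with KCL-HO-1i/5-FU. With mouse code as a covariate, the value against 5-FU was 0.47, in the opposite direction.

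Between KCL-HO-1i/gemcitabine and vehicle tumors, 3 of 8 members had an unadjusted p under 0.05, all higher in the combination, against 19.8% of tested genes in both directions. Glycam1 stood at a log2 fold change of 5.51 ± 1.81 (SE, edgeR adjusted p = 0.103), Csn1s2a at 4.73 ± 1.74 (edgeR adjusted p = 0.131) and Csn1s2b at 1.63 ± 0.74 (edgeR adjusted p = 0.219). Csn2 stood at 2.98 ± 1.71 (edgeR adjusted p = 0.352) and Csn3 at -0.36 ± 0.52 (edgeR adjusted p = 0.763). DESeq2, which called 6.46% of tested genes in this contrast, called Csn1s2a and Glycam1 (adjusted p = 0.0190 and 0.0259). Against KCL-HO-1i alone, the same combination had 1 member of 8 with an unadjusted p under 0.05, Csn1s2b at 1.88 ± 0.75 (SE, edgeR adjusted p = 1.00), where 2.66% of tested genes had one. Fitted fold changes follow the mean count of a group, and here replicates 2 and 5 carried most of the count. With 1 library left out, the value of Glycam1 against vehicle ran from 3.41 without KCL-HO-1i/gemcitabine replicate 2 to 6.72 without vehicle replicate 3, and that of Csn1s2a from 3.89 without KCL-HO-1i/gemcitabine replicate 5 to 6.20 without vehicle replicate 3. On the log2 scale, Csn1s2a averaged 6.67 ± 4.82 (SD, n = 5) with KCL-HO-1i/gemcitabine and 4.68 ± 1.63 in vehicle tumors, and replicates 3 and 4 of the combination lay below every vehicle tumor. In the test of any difference, Glycam1 had an edgeR adjusted p of 0.0802, Csn1s2a of 0.118 and Csn3 of 0.978. DESeq2, with 6.98% of tested genes called, gave 0.00999 for Glycam1 and 0.00270 for Csn1s2a. Neither 5-FU nor gemcitabine alone had a member with an unadjusted p under 0.05 against vehicle, where 3.89% and 3.83% of tested genes did, and the log2 fold changes of Csn2 were 0.018 ± 1.59 and 1.35 ± 1.62.

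**Figure D4:**
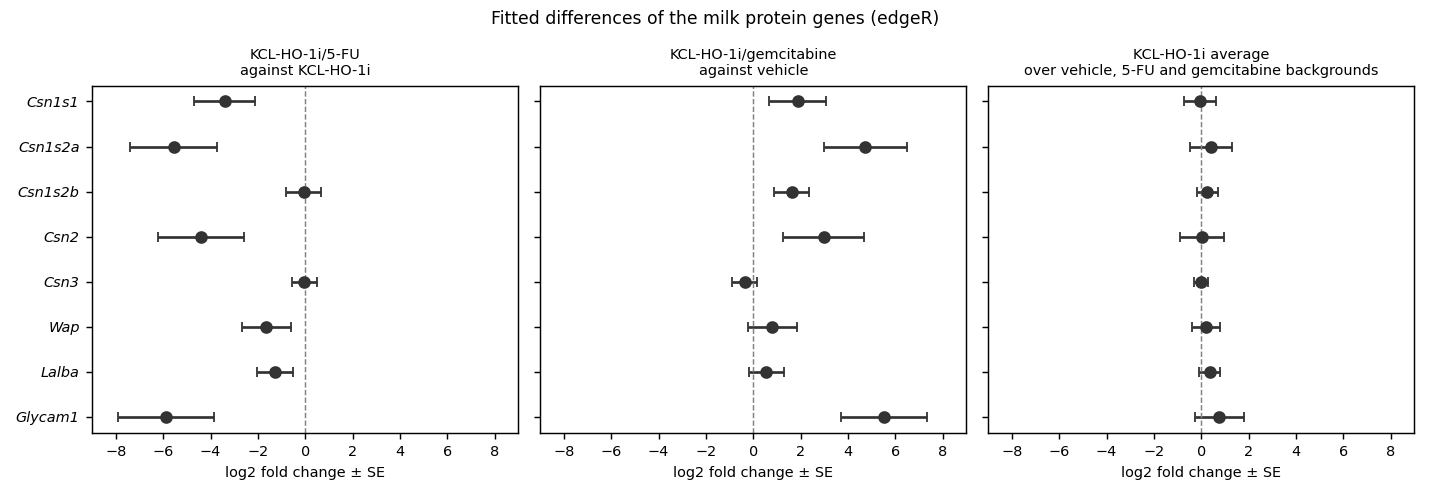
Fitted log2 fold change with SE (x axis) of each milk protein gene (y axis) from edgeR, for KCL-HO-1i/5-FU against the inhibitor alone, for KCL-HO-1i/gemcitabine against vehicle, and for KCL-HO-1i averaged over the 3 backgrounds. Csn1s2a and Glycam1 lie farthest from 0 in the first 2 panels, in opposite directions, and Csn3 lies near 0 in all 3.

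Markers of other cell types moved in the same contrasts. Of all tested genes, 16.9% had an unadjusted p under 0.05 in KCL-HO-1i/5-FU against the inhibitor alone. In KCL-HO-1i/gemcitabine against vehicle 19.8% did, both shares counting either direction. Of 10 adipocyte genes, 8 were lower at an unadjusted p under 0.05 in KCL-HO-1i/5-FU against the inhibitor alone and all 10 were higher in KCL-HO-1i/gemcitabine against vehicle, and of 8 skeletal muscle genes all 8 were lower and all 8 higher, with none called by edgeR. The summed adipocyte level ran from 42.3 to 426 CPM with vehicle, 22.3 to 245 CPM with 5-FU, 19.6 to 1767 CPM with gemcitabine, 44.9 to 8337 CPM with the inhibitor alone, 19.0 to 401 CPM with KCL-HO-1i/5-FU and 21.98 to 8628 CPM with KCL-HO-1i/gemcitabine. That of muscle ran from 1.53 to 39.0 CPM, 1.14 to 232 CPM, 2.09 to 205 CPM, 15.3 to 3852 CPM, 1.41 to 52.5 CPM and 1.19 to 11309 CPM in the same order. Some tumors high in Csn2 held many adipocyte reads, as KCL-HO-1i/gemcitabine replicate 2 did with 8628 CPM, while others held few. Vehicle replicate 3, which was highest in Wap and led the vehicle group in Csn2, held 59.5 CPM. Across tumors, Csn2 was related to the mean adipocyte level (r = 0.561, adjusted permutation p = 0.00900; rho = 0.538, adjusted permutation p = 0.0156; r = 0.554 without the 2 farthest tumors). Csn1s1, Csn1s2a, Wap and Glycam1 passed the threshold by Pearson only. Csn1s2b passed by neither, nor did Csn3 (r = 0.135, adjusted permutation p = 0.614; rho = 0.00645, adjusted permutation p = 0.974) or Lalba (r = 0.366, adjusted permutation p = 0.112; rho = 0.357, adjusted permutation p = 0.172). Other lists moved less evenly. In KCL-HO-1i/5-FU against the inhibitor alone, 8 of 10 proliferation genes were lower at an unadjusted p under 0.05 (median log2 fold change of -1.003), with a summed level of 154 to 751 CPM against 552 to 874 CPM. In KCL-HO-1i/gemcitabine against vehicle, 5 of 9 basal and myoepithelial genes were higher (median 1.52; 134 to 1334 CPM against 125 to 424 CPM), 3 of 6 tested salivary genes were higher (6.78 to 125 CPM against 8.09 to 44.2 CPM) and 3 of 11 luminal genes were lower (2686 to 6069 CPM against 5272 to 6248 CPM). None of these genes was called by edgeR. The part of these cells in the differences of the milk protein genes was not tested.

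Other genes of milk production were counted from lists, to be read beside the 16.9% and 19.8% of all tested genes in these contrasts. Of 21 genes for milk fat, lactose and secretion 20 were tested, and in KCL-HO-1i/5-FU against the inhibitor alone 8 of them were lower and 0 higher at an unadjusted p under 0.05, with a median log2 fold change of -0.81 against 0.0097 over all genes, and -2.53 for the 8 milk proteins. In KCL-HO-1i/gemcitabine against vehicle 3 were higher and 1 lower (median 0.41, against 0.019 over all genes and 1.75 for the milk proteins). Several of these genes, such as Fasn, Lpl and Cd36, are also expressed by adipocytes. Of 14 other secreted proteins of milk and alveolar epithelium, 1 was higher and 0 lower in the first contrast and 0 in the second. Of 20 genes for prolactin and steroid signaling and alveolar regulation 19 were tested, with 2 higher and 2 lower in the first contrast and 1 higher in the second. None of these genes was called by edgeR. Each of the 8 members was related to the mean level of 10 lists, a family of 80 relations. The list of other secreted proteins followed Csn2 (r = 0.664, adjusted permutation p = 0.000267, and rho = 0.799, adjusted permutation p = 0.000160). It followed Csn3 by Pearson only (r = 0.725, adjusted permutation p = 0.00900, and rho = 0.328, adjusted permutation p = 0.207). Without the 2 tumors farthest in Csn3, that r was 0.214. The milk fat, lactose and secretion list followed Csn2 (r = 0.737, adjusted permutation p = 0.000200; rho = 0.782, adjusted permutation p = 0.000160; r = 0.761 without the 2 farthest tumors) while its relation with Csn3 did not pass the threshold (r = 0.184, adjusted permutation p = 0.445; rho = -0.148, adjusted permutation p = 0.594). The relation of the regulator list with Csn2 did not pass the threshold (r = 0.292, adjusted permutation p = 0.233; rho = 0.320, adjusted permutation p = 0.226). Its genes went both ways, with r to Csn2 from -0.386 for Cebpb and -0.373 for Socs2 to 0.650 for Stat5a and 0.667 for Elf5. Jak2 stood at 0.441, and these single values were not tested. Luminal epithelium markers followed Csn3 by Pearson but not by Spearman (r = 0.597, adjusted permutation p = 0.0121; rho = 0.370, adjusted permutation p = 0.154; r = 0.546 without the 2 farthest tumors) while their relation with Csn2 did not pass the threshold (r = -0.063, adjusted permutation p = 0.817; rho = -0.087, adjusted permutation p = 0.785).

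**Figure D5:**
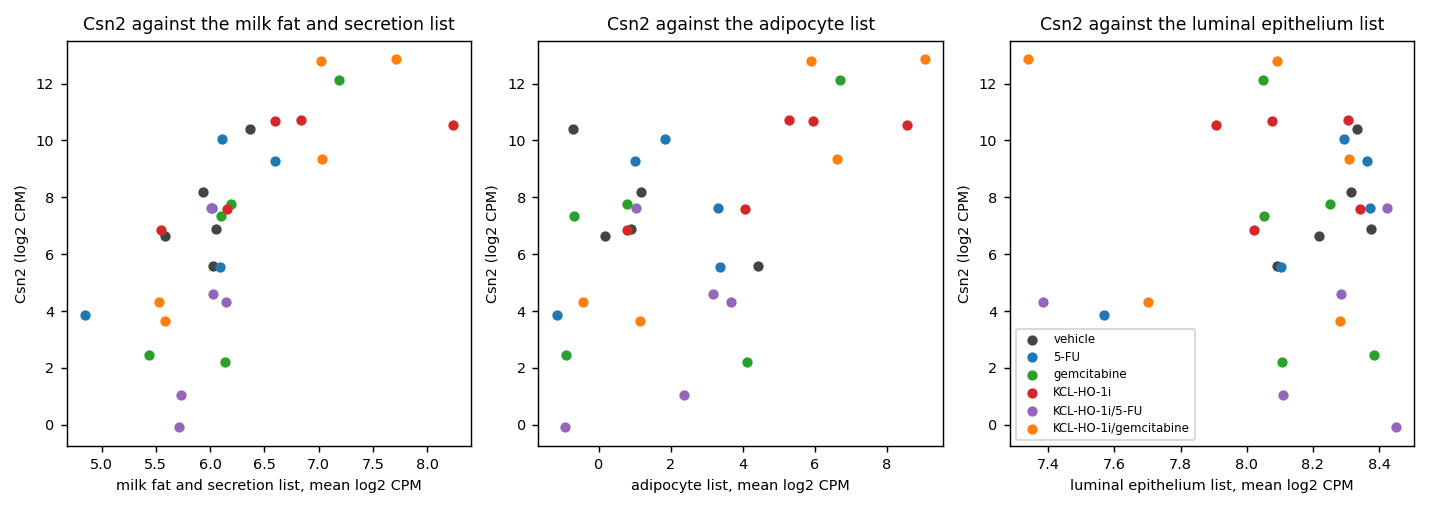
Csn2 in log2 CPM (y axes) against the mean log2 CPM of the milk fat and secretion list, the adipocyte list and the luminal epithelium list (x axes), with 1 point per tumor colored by group. Csn2 climbs with the first list and more loosely with the second, and shows no slope with the third.

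Among all tested genes outside the 8, those most like the mean of the members over the 30 tumors were Chrdl2 (r = 0.823), Abhd5 (0.822), 1700012B07Rik (0.821), Lao1 (0.819), Slc5a5 (0.802), Oma1 (0.797), Btn1a1 (0.793), Gldc (0.791), Nagpa (0.787) and Hephl1 (0.784), with Pearson r as the measure of likeness. Lao1 is a milk amino acid oxidase, Slc5a5 the iodide transporter that the lactating gland uses, and Btn1a1 the butyrophilin of the milk fat globule. Taken singly, Csn2 was most like Slc5a5 (r = 0.856) and Csn1s1 most like Lao1 (r = 0.822). The gene most like Csn3 was Armcx3, with r = 0.920 over all tumors and 0.634 without 5-FU replicate 4.

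That tumor stood apart for more than the milk proteins. 5-FU replicate 4 was the lowest of the 30 tumors for Csn3, Wap and Lalba and also for transferrin (Trf, 689 CPM), osteopontin (Spp1, 225 CPM), the galactosyltransferase B4galt1 (99.7 CPM) and the luminal keratin Krt19 (9.37 CPM), whereas Epcam, at 1176 CPM, and Krt8, at 854 CPM, were 10th and 4th from the lowest. Its Csn1s2a, in contrast, was 23rd from the lowest at 146 CPM, so that not every casein was low there. The luminal markers not named above ranked from 2nd (Elf3) to 27th (Cldn4) from the lowest in this tumor. It was the highest of the 30 tumors for the basal keratin Krt5 (168 CPM) and for Prol1 of the salivary list (118 CPM). The rest of these lists did not share that rank. The other basal and myoepithelial genes ranked from 6th (Krt14) to 27th (Acta2 and Cnn1) from the lowest. The other tested salivary genes ranked from 6th (Dcpp1) to 29th (Smr3a and Smr2). Tumors that shared a mouse code, whose meaning the labels do not state, did not share a level of Csn2, which differed 9.77- to 376-fold within each of the 8 codes that held 2 or more tumors. The 4 tumors of code PY70 ran from 19.7 to 7423 CPM in Csn2. The 2 of code PY84 were at 290.4 and 7018 CPM in Csn2 but at 16939 and 16569.8 CPM in Csn3.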

How the data were processed

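Total RNA of 30 tumors was extracted with the RNeasy kit and made into strand-specific libraries, per the labels. The authors deposited 1 table of expected counts per gene, not whole numbers in 38.0% of values, and their processing notes name FastQC 0.11.9, STAR 2.7.9a, Salmon 1.9.0, DESeq2 and the build mm10. Values were rounded to whole counts. Genes with too few counts by edgeR's filterByExpr (minimum count 10) were left out, which kept 13663 of 21841 genes. Counts were normalized by TMM and tested with edgeR 4.0.16 (robust quasi-likelihood, 6 group means over all 30 libraries, Benjamini-Hochberg over all tested genes, threshold 0.05). The study used DESeq2, which was run as an alternative beside limma-voom and other settings. The model was tested on simulated counts that gave every gene the same spread. Each member spread more than that, so the simulation does not cover them. Correlations used log2 CPM with a prior count of 2. List scores are mean log2 CPM, so that every listed gene weighs alike. CPM per kb divides by the merged exon length of GENCODE M21. Replicate libraries were not duplicates, since the smallest chi-square per degree of freedom among 60 pairs within groups was 19.9. The series text counts 5 mice a group, while the labels spread 13 mouse codes of unstated meaning over the 30 tumors, so p-values measure the spread between these tumors, whose independence was not settled. All 8 members were named whatever their values, with the list genes, the 10 genes most like their mean and the 3 most like each. The members, lists and tests were chosen with earlier results of these data known. No column of the table was left unused.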

Additional observations from a re-analysis of the deposited data

Results flagged for a closer look

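In 48 sets of 5 tumors (8 members in 6 groups), a tumor far from the other 4 on the log2 CPM scale occurred 4 times, by Dixon's ratio of the gap to the range (critical value 0.71), where chance gives about 5% of sets. Csn3 in 5-FU replicate 4 had a ratio of 0.967, at 318 CPM against 13379.9 CPM in the nearest tumor. Lalba in the same tumor had a ratio of 0.741, at 15.2 CPM against 479.5 CPM. Wap in vehicle replicate 3 had a ratio of 0.751, at 661 CPM against 60.02 CPM. Csn1s2b in gemcitabine replicate 5 had a ratio of 0.725, at 4.57 CPM against 0.751 CPM, in the tumor that also held the most Csn1s2a of its group.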

How the results depend on the processing

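The count of members called was 0 in 10 of the 13 tests under every alternative run (RLE normalization, DESeq2, limma-voom, no filter on counts, a mean count of at least 50, replicate block, mouse code, only the groups compared, and each library left out). With DESeq2 it was 2, Csn1s2a and Glycam1, for KCL-HO-1i/gemcitabine against vehicle, for KCL-HO-1i/5-FU against the inhibitor alone and for any difference among the 6 groups. In these tests DESeq2 called 6.46%, 2.85% and 6.98% of tested genes. For the average effect of KCL-HO-1i it called 8.34% of tested genes, with 0 members among them. Leaving out 1 library at a time, the count of members called ranged from 0 to 2 for any difference. It was 2 without gemcitabine replicate 5 (Csn1s2a and Glycam1, smallest edgeR adjusted p = 0.0400). It was 1, Glycam1, without KCL-HO-1i/gemcitabine replicate 3 (edgeR adjusted p = 0.0421) or 4 (edgeR adjusted p = 0.0389), and stayed 0 otherwise. With all libraries 0.651% of tested genes were called in that test, and the shares with 1 library left out are not given here. The cause of these changes was not tested.

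With the replicate number as a block, 0 members were called, with 10 of 96 values at an unadjusted p under 0.05 (9.45% of values of all tested genes) and a smallest edgeR adjusted p of 0.191. The numbers did not pair the tumors, since deviations of same-numbered tumors correlated at 0.00284 on average (range -0.583 to 0.480 over 75 pairs).

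Some values changed sign. The average effect of KCL-HO-1i on Csn1s1 was 0.23 with limma-voom, 0.028 with the replicate block and 4.19 with mouse code as a covariate, and that on Csn3 was 1.38 with mouse code, which also turned Csn1s1 in KCL-HO-1i/5-FU against 5-FU from -2.80 to 0.47. Leaving out 1 library at a time, the average effect ranged from -0.39 to 0.49 for Csn1s1, -0.67 to 1.11 for Csn2, -0.13 to 0.048 for Csn3 and -0.0057 to 0.78 for Wap. For KCL-HO-1i/5-FU against the inhibitor alone it ranged from -6.45 to -4.85 for Csn1s2a, -7.50 to -5.53 for Glycam1 and, lowest without KCL-HO-1i/5-FU replicate 1, -6.47 to -4.09 for Csn2. For KCL-HO-1i/gemcitabine against vehicle, other settings gave 3.08 to 7.72 for Glycam1 and 3.29 to 7.01 for Csn1s2a. None of these fold changes was called by edgeR with 1 library left out. The number of related member pairs, 20, was 15 to 21 under the alternatives, among them 2 chosen after seeing the data, the omission of 5-FU replicate 4 (21 pairs, and r of Csn2 with Csn3 at -0.028) and residuals from mouse code means (18 pairs). At 5 tumors a group and these SEs, differences of several fold in Csn2, Csn1s2a or Glycam1 were not detectable.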
